A study of Mus musculus with 18 samples.

Results

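Interferon-stimulated genes are the genes that cells switch on when they sense an interferon. Here 38 such genes were followed through the 6 groups of a mouse thymus data set. They were picked by gene symbol, from a list drawn up with earlier results of these data known, and all 38 were found among the 23063 gene rows of the deposited tables. Stroma-enriched cell suspensions of digested thymi, from animals 6 to 8 weeks old, were sorted by flow cytometry. Cortical thymic epithelial cells (cTEC) and medullary thymic epithelial cells of a low and a high gate (mTEClo and mTEChi) were each taken from wild-type mice (WT) and from Aire knockout mice (KO). Aire is the transcriptional regulator that lets mature medullary epithelium express genes of other tissues. Each of the 6 groups had 3 libraries, 18 in all, sequenced on an Illumina HiSeq instrument. All samples, WT included, carry the strain label B6.129S2-Airetm1.1Doi/J, and the surface protein behind the low and high gates is not named in them. Whether replicates came from separate mice is not stated either, so the p-values reflect the spread among libraries, which may be technical.

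Interferons are secreted proteins that bind receptors on the cell surface and activate JAK kinases. For type I and type III interferons these kinases lead to a complex that contains STAT2 and IRF9 and binds the interferon-stimulated response element (ISRE) in the promoters of its target genes. The targets sense, cut or trap foreign nucleic acid and proteins, and several of them, such as Irf7 and Stat2, feed back on the pathway. Thymic epithelium is known to express interferon genes and their targets without infection.

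Levels are given in RPKM, the signal on a gene per kilobase of gene model and per library-wide total, so levels can be compared between genes. Values with ± are a mean with its SD (n = 3 libraries). Every fold change is a difference of log2(RPKM + 0.1), which understates the change of low genes. A gene was called changed at an adjusted p under 0.05 (limma, Benjamini-Hochberg over 19451 tested genes, all 38 members among them). In bulk RNA, fewer cells of a type and less RNA per cell cannot be told apart. Depth ran from 4.54 to 18.1 Gb of aligned bases on genes, and replicates correlated at 0.971 to 0.995.

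The interferon-stimulated genes were lower without Aire in all 3 populations. Summed over the 38 genes, the level was 889.6 to 1031 RPKM in the WT mTEChi libraries and 587 to 635 RPKM in the KO mTEChi libraries. In mTEClo the sum was 2684 to 2834 RPKM in WT and 1736 to 1862 RPKM in KO, and in cTEC it was 2207 to 2397 RPKM in WT and 1637 to 1833 RPKM in KO. The genotypes did not overlap in any population. The highest sums were those of WT mTEClo and the lowest those of KO mTEChi.

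In mTEChi, 35 of the 38 members were called lower in KO (52.8% of all tested genes were), 2 were called higher (9.57%), and 1, Usp18, was not called. Among the 15673 genes with 1 RPKM or more in 3 libraries these shares were 49.3% and 11.4%. The median change of the members was -1.31, beside -0.39 over all tested genes, so the members were lower than a background that was itself low. The share of all genes called lower depends on the scaling: quantile normalization moved it to 24.7%, with 31.2% higher and a median of 0.08, with 33 members lower and 2 higher; centring on housekeeping genes gave 34.7% lower, 20.0% higher and a median of -0.09, with 32 members lower and 3 higher. In mTEClo, 33 members were called lower (8.04%) and 0 higher (7.93%); all 38 fitted changes were negative, so none was higher at an unadjusted p under 0.05 either. Among the genes of 1 RPKM or more, 10.1% were lower and 9.65% higher. The median was -0.53 there, beside -0.04 over all genes. Leaving out single mTEClo libraries ended calls of Usp18, Ifit1, Ifit2, Oasl1, Gbp2, Ifi35 and Rtp4. In cTEC, 23 members were called lower (6.76%) and 1 higher (13.3%), with a median of -0.32 beside -0.01 (8.22% and 16.4% among the genes of 1 RPKM or more). When the cTEC libraries were fitted without the other groups, 2 members were called lower (0.616% of all genes), Isg15 and Rtp4, and 0 higher. Leaving out single cTEC libraries ended calls of Ifit1, Ifit3, Gbp3, Irf7, Stat2, Zbp1, Ifi44, Rtp4, Xaf1, Samd9l and Trim30a.

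Of the 38 members, 21 were called lower in all 3 populations, which 1.94% of all tested genes were. These were Isg15, Herc6, Trim25, Ifit3, Oasl2, Gbp3, Ifih1, Irf7, Irf9, Stat2, Parp14, Dtx3l, Zbp1, Eif2ak2, Ddx60, Ifi44, Bst2, Rtp4, Xaf1, Trim30a and Lgals3bp. Counted by library, every KO value lay below every WT value for 35 members in mTEChi (60.1% of all tested genes), 36 in mTEClo (22.6%) and 26 in cTEC (11.0%). For 34 members every KO mTEChi library lay below every other library of the data set, which 25.4% of all genes did. No member was at 0 RPKM in any library.

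**Figure D1:**
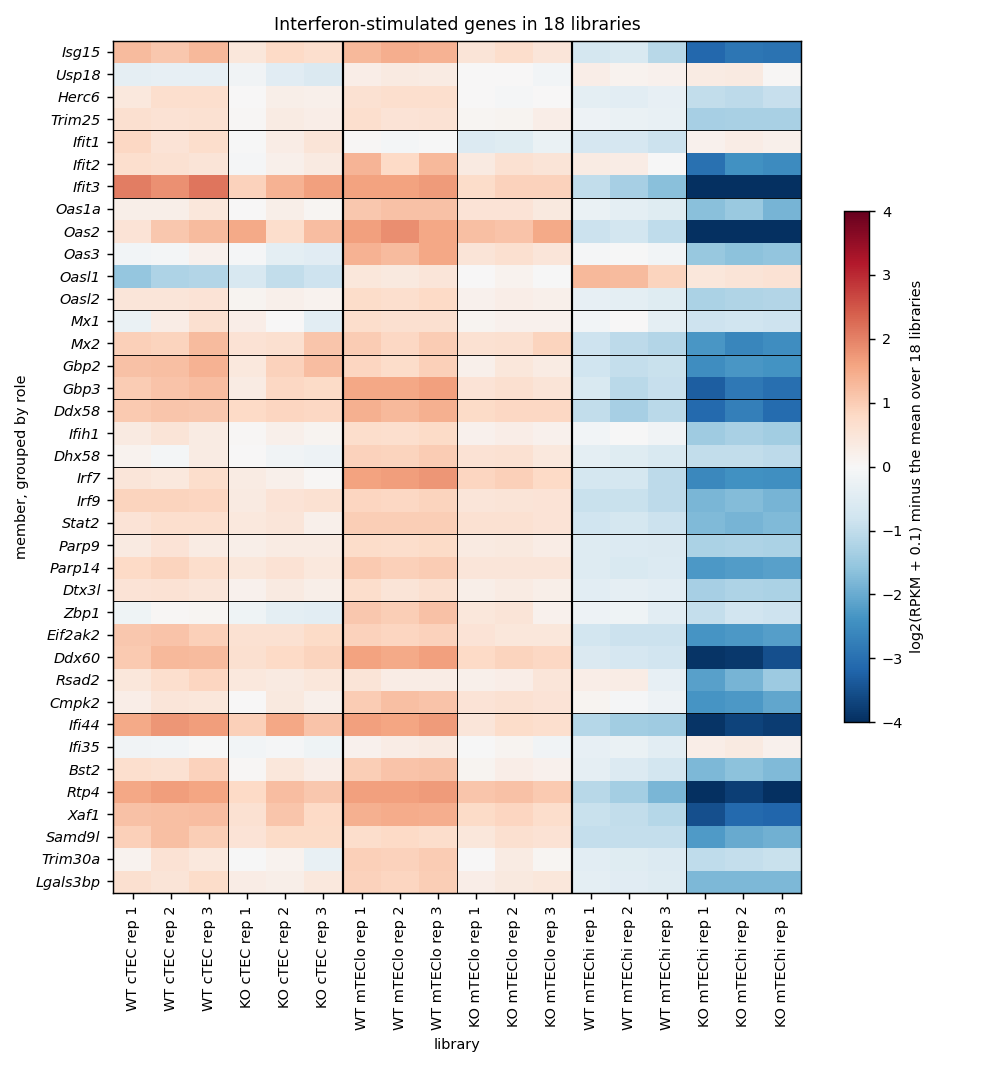
Colour gives log2(RPKM + 0.1) of each of the 38 members (rows, grouped by role) in each of the 18 libraries (columns), minus the member's mean over all libraries; values beyond the ends of the scale take the end colours. All 3 KO mTEChi columns are the lowest for 34 members, and Usp18, Ifit1, Oasl1 and Ifi35 depart from that pattern.

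The promoters were read from RefSeq (GRCm38.p6), in windows from 250 bases before to 50 bases after each start site. Windows were at hand for 29 members, and those of Usp18, Oas2, Mx1, Mx2, Dhx58, Parp9, Parp14, Zbp1 and Rtp4 were not. An ISRE-like match, GAAA then any 2 bases then GAAA, on either strand, stood in the windows of 15 of the 29 members (51.7%), beside 3.99% of all 27025 genes with a window. The same motif followed by C, which is a subset of these matches, stood in 13 (44.8%) beside 0.94%. Of the 24 matches in the members' windows, 20 began upstream of the start site, 19 of them within 160 bases of it. The 100 bases before the start are shown next for 5 of the 15 members with a match, because they hold the letters that these members share. Each is written 5′ to 3′ on the gene's strand, ends at the base before the RefSeq start site, and has the ISRE-like matches of either strand in capitals.
Isg15, chr4:156200819-156200918, minus strand: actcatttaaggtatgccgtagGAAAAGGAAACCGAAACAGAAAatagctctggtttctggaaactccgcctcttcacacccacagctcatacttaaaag
Ddx60, chr8:61927987-61928086, plus strand: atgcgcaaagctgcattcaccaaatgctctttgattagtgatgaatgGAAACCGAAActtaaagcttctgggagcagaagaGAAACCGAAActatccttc
Oas3, chr5:120777660-120777759, minus strand: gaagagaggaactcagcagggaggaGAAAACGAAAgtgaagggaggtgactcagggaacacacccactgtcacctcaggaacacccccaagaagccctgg
Gbp2, chr3:142620563-142620662, plus strand: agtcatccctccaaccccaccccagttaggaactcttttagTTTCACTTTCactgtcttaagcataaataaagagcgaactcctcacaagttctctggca
Gbp3, chr3:142559944-142560043, plus strand: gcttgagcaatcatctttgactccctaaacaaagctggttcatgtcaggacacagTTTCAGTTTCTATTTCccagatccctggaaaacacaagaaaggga
In Isg15 the matches run into each other and begin 78, 72 and 66 bases before the start. Gbp2 and Gbp3 carry the motif on the opposite strand, so that it reads TTTC on the strand shown.

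The 15 members with a match and the 14 without one were compared by their KO minus WT changes in mTEChi, as a description. Of the 15, 14 were called lower, with a median change of -1.53 and a range from -3.17 to 0.95. Of the 14, 13 were called lower, with a median of -1.08 and a range from -2.86 to 0.59. The 9 members without a window had 8 lower and a median of -0.72. A match was thus present in members with large falls, such as Ddx60 and Ifit3, and in Ifit1, which was higher. A second motif, TTCNNNGAA, was searched after the values had been seen. It stood in 5 of 29 members' windows (17.2%) and in 9.55% of all genes.

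**Figure D2:**
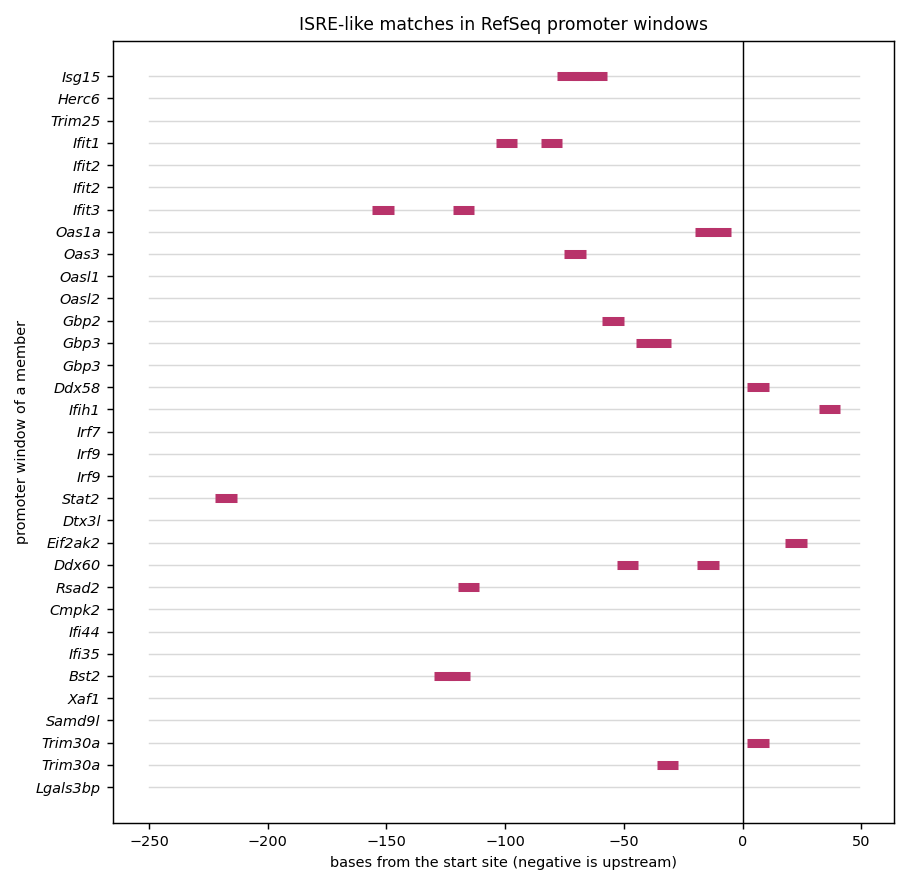
Each grey line is a RefSeq promoter window of a member, drawn against the distance from the start site in bases (negative is upstream), and each bar is an ISRE-like match. Members with more than 1 RefSeq start have more than 1 line; 19 of the 24 matches begin within 160 bases upstream, and 14 of the 29 members have no bar.

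Among the genes of the ISG15 pathway, 3 of 4 fell in KO mTEChi, all 4 fell in KO mTEClo and 3 fell in KO cTEC. Counts by role are small and stand, here and for the roles that follow, against the 52.8%, 8.04% and 6.76% of all genes that were lower in these populations. Isg15 (chr4:156199424-156200818, mm10) encodes a ubiquitin-like protein that is attached to other proteins during an interferon response. It was at 60.003, 64.3 and 44.8 RPKM in the WT and 10.98, 13.1 and 12.5 RPKM in the KO mTEChi libraries. The highest KO library was thus far below the lowest WT library (log2 fold change -2.18, SE 0.12, adjusted p = 4.8e-10). In mTEClo it was at 238, 266 and 258 RPKM in the WT and 140.04, 159 and 136 RPKM in the KO mTEClo libraries (log2 fold change -0.81, SE 0.12, adjusted p = 0.00063). In cTEC it was at 237, 208 and 242 RPKM in the WT and 135, 169 and 155 RPKM in the KO cTEC libraries (log2 fold change -0.58, SE 0.12, adjusted p = 0.0033). No population showed overlap between genotypes. Herc6, the main ligase for ISG15 in the mouse, went from 8.11 ± 0.254 to 5.36 ± 0.262 RPKM in mTEChi (-0.59, adjusted p = 8.3e-06), a fall close in size to that in mTEClo (-0.67). Trim25, a ubiquitin ligase that acts with RIG-I, went from 17.2 ± 0.661 to 8.25 ± 0.0965 RPKM in mTEChi (-1.05, adjusted p = 5.7e-09).

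Usp18 (chr6:121245906-121270917), which removes ISG15 from proteins and dampens the receptor, had a different course. It was at 116, 107 and 107 RPKM in the WT and 121, 125 and 99.2 RPKM in the KO mTEChi libraries. The genotypes overlapped there (log2 fold change 0.05, SE 0.10, adjusted p = 0.68), and the sign of the change turned under quantile normalization and without KO mTEChi replicate 2. Centred on housekeeping genes it was called higher (0.35, adjusted p = 0.012). A p above the threshold does not show that the levels were alike. In mTEClo Usp18 fell from 120.2 ± 2.94 to 94.4 ± 5.26 RPKM (-0.35, adjusted p = 0.029), a call that was lost when any 1 of the 6 mTEClo libraries was left out. At 115 RPKM it was the highest of the 38 members in KO mTEChi.

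The IFIT genes, whose proteins bind viral RNA, stand side by side on chromosome 19 and moved in opposite directions in KO mTEChi. Ifit3 (chr19:34583529-34588982) was at 21.6, 16.98 and 13.5 RPKM in the WT and 1.54, 1.996 and 1.91 RPKM in the KO mTEChi libraries (log2 fold change -3.17, SE 0.17, adjusted p = 2.7e-10). Ifit2 (chr19:34550694-34576534) was at 11.3, 11.1 and 8.93 RPKM in the WT and 1.05, 1.58 and 1.49 RPKM in the KO mTEChi libraries (log2 fold change -2.86, SE 0.16, adjusted p = 5e-10). For both genes every KO library was well below every WT library. Ifit1 (chr19:34640889-34650009) was at 42.6, 42.8 and 36.9 RPKM in the WT and 75.5, 82.5 and 77.5 RPKM in the KO mTEChi libraries, with every KO library above every WT library (log2 fold change 0.95, SE 0.12, adjusted p = 3.5e-06). This was the larger of the 2 rises among the members. In the other populations the 3 genes went the same way. In mTEClo, Ifit3 fell (-0.78, adjusted p = 0.0065), Ifit2 fell (-0.65, adjusted p = 0.014) and Ifit1 fell (-0.41, adjusted p = 0.026), the latter calls being among those lost without single libraries. In cTEC, Ifit3 was at 178, 152 and 189 RPKM in the WT and 81.3, 113 and 134 RPKM in the KO cTEC libraries (log2 fold change -0.68, SE 0.17, adjusted p = 0.01). Without KO cTEC replicate 1, its lowest library, its adjusted p was 0.055. Ifit1 fell in cTEC (-0.42, adjusted p = 0.018), though not without KO cTEC replicate 1 (adjusted p = 0.092), and Ifit2 did not pass (-0.43, adjusted p = 0.073).

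Between Ifit3 and Ifit1 lie 3 more genes of the family, described after their values were seen. Gm14446, a synonym of Ifit1bl1 in RefSeq, was at 6.56, 7.84 and 4.99 RPKM in the WT and 0.0858, 0.191 and 0.098 RPKM in the KO mTEChi libraries. I830012O16Rik, a synonym of Ifit3b, was at 6.55, 5.62 and 3.97 RPKM in the WT and 0.505, 0.439 and 0.555 RPKM in the KO mTEChi libraries. 2010002M12Rik, a synonym of Ifit1bl2, was at 1.42, 1.56 and 1.04 RPKM in the WT and 0.176, 0.32 and 0.129 RPKM in the KO mTEChi libraries. Each was lower in every KO than in every WT mTEChi library, as 60.1% of all tested genes were. Ifit1 was thus the 1 gene of the 6 in the cluster that was higher. Gm14446 and 2010002M12Rik were at 0.638 ± 0.275 and 0.315 ± 0.0341 RPKM in WT cTEC, below their levels in WT mTEChi. Reads shared between Ifit3 and its near copy Ifit3b cannot be told apart here, so single values of these genes are uncertain.

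The promoters of the 3 members of the cluster are shown because the genes lie together and moved apart; those of Ifit3 and Ifit1 were chosen after the values were seen. Each is written on the gene's plus strand, and capitals again mark ISRE-like matches, which here read TTTC because the motif lies on the opposite strand.
Ifit2, chr19:34550534-34550693: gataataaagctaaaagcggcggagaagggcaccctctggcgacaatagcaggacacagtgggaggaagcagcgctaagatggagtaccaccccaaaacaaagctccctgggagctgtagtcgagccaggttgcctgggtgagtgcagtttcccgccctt
Ifit3, chr19:34583369-34583528: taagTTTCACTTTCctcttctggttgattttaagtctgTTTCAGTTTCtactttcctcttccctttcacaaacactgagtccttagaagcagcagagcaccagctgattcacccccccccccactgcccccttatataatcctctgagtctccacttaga
Ifit1, chr19:34640729-34640888: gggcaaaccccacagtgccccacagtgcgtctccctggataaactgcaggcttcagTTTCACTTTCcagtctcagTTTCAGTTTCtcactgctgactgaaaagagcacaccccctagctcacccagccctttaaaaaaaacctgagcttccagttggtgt
Ifit3 and Ifit1 each hold 2 matches in the window, and Ifit2 holds none in these letters. The presence of a match therefore did not follow the direction of the change among the 3 genes.

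**Figure D3:**
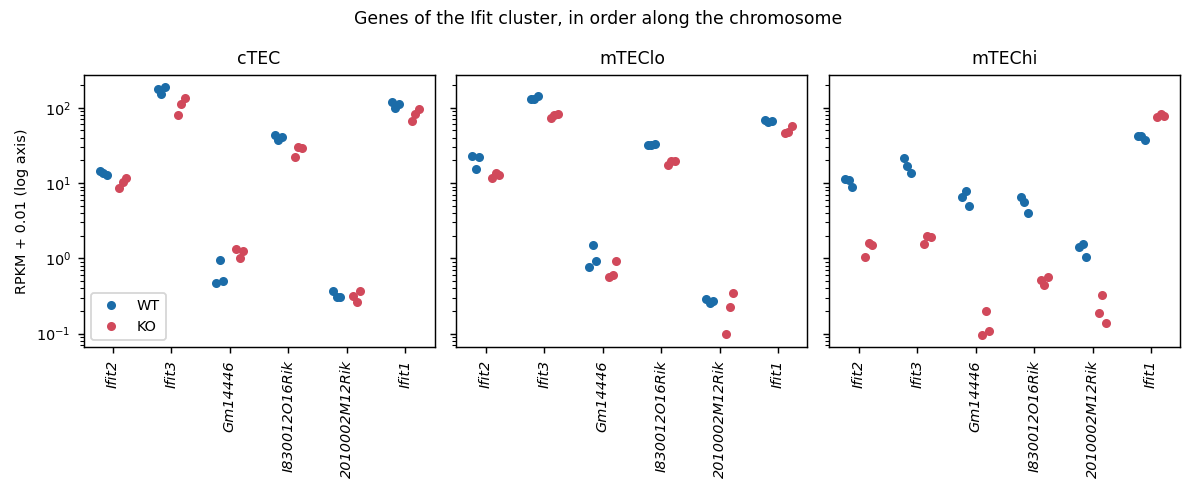
RPKM + 0.01 on a log axis for the 6 genes of the Ifit cluster in chromosomal order, 1 dot per library, with WT in blue and KO in red and 1 panel per population. In mTEChi 5 genes have all KO dots below the WT dots, and Ifit1 has them above.

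The OAS genes encode enzymes that answer double-stranded RNA by making the messenger that switches on RNase L. All 5 fell in KO mTEChi and 4 of 5 fell in KO mTEClo. Oas2 (chr5:120730333-120749848) had the largest fall of all members. It was at 3.75, 4.13 and 3.35 RPKM in the WT and 0.24, 0.301 and 0.294 RPKM in the KO mTEChi libraries (log2 fold change -3.34, SE 0.20, adjusted p = 8.8e-10). In mTEClo it was at 21.4, 25.02 and 20.2 RPKM in the WT and 16.01, 15.2 and 19.7 RPKM in the KO mTEClo libraries, without overlap but not past the test (log2 fold change -0.39, SE 0.20, adjusted p = 0.21), which it passed with the mTEClo groups fitted alone (adjusted p = 0.043), and in cTEC the genotypes overlapped (0.19, adjusted p = 0.57). Oas2 was thus close to the bottom of the scale in KO mTEChi and above 10 RPKM in the other KO groups. Its neighbour Oas3 went from 6.89 ± 0.242 to 2.33 ± 0.1 RPKM in mTEChi (-1.53, adjusted p = 5.7e-09) and from 19.1 ± 1.85 to 10.5 ± 0.606 RPKM in mTEClo (-0.85, adjusted p = 0.00014). Oas1a went from 17.02 ± 1.28 to 6.95 ± 0.891 RPKM in mTEChi (-1.29, adjusted p = 1.1e-08); its near copies, Oas1g among them, may share its reads. Oasl2, which stood at 224 ± 9.47 RPKM in WT mTEClo, fell in all 3 populations (-0.81 in mTEChi, -0.51 in mTEClo, -0.36 in cTEC).

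Oasl1 (chr5:114923240-114937911), which lacks the enzyme activity and holds back the translation of Irf7, was the 1 member that was higher in KO cTEC. It was at 4.41, 5.46 and 5.801 RPKM in the WT and 8.3001, 6.51 and 7.28 RPKM in the KO cTEC libraries (log2 fold change 0.49, SE 0.12, adjusted p = 0.0069). With the cTEC groups fitted alone Oasl1 was not called (adjusted p = 0.11). In mTEChi it went the other way, at 32.2, 31.9 and 24.5 RPKM in the WT and 17.95, 18.7 and 19.4 RPKM in the KO mTEChi libraries (log2 fold change -0.65, SE 0.12, adjusted p = 0.00015). The groups did not overlap in either population. It was also the 1 member with its highest mean in WT mTEChi. In KO cTEC 4 of 7 mTEChi markers were higher, and their part in its rise there was not tested. In mTEClo Oasl1 fell from 17.8 ± 0.499 to 13.5 ± 0.785 RPKM (-0.39, adjusted p = 0.03), a call that some single mTEClo libraries carried.

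Mx1 and Mx2 belong to a family of dynamin-like GTPases that trap viral particles, and both fell in KO mTEChi. Whether these mice make working protein from them was not tested. Mx1 went from 15.5 ± 2.204 to 9.65 ± 0.0895 RPKM (-0.67, adjusted p = 0.0048), and this call was lost under quantile normalization and under centring on housekeeping genes. Mx2, which the GENCODE annotation lists as a polymorphic pseudogene, went from 3.12 ± 0.394 to 1.07 ± 0.122 RPKM (-1.46, adjusted p = 3.9e-07). Neither passed in mTEClo (-0.52, adjusted p = 0.066 for Mx1; -0.24, adjusted p = 0.31 for Mx2) or in cTEC; Mx1 passed with the mTEClo groups fitted alone (adjusted p = 0.0011). The guanylate-binding proteins attack the vacuoles in which microbes hide. Gbp3 (chr3:142560052-142573212) was at 78.97, 77.4 and 83.7 RPKM in the WT and 38.7, 41.9 and 38.2 RPKM in the KO mTEClo libraries (log2 fold change -1.01, SE 0.14, adjusted p = 0.00025). Its mTEChi fall was larger, from 14.7 ± 2.52 to 3.16 ± 0.484 RPKM (-2.18, adjusted p = 1.7e-09). Gbp2 went from 15.9 ± 0.929 to 5.44 ± 0.348 RPKM in mTEChi (-1.53, adjusted p = 1.7e-07). Neither gene overlapped between genotypes in mTEChi or mTEClo.

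The receptors that sense viral RNA in the cytosol were lower in both KO medullary populations. Ddx58, the gene of RIG-I, went from 7.66 ± 0.977 to 2.08 ± 0.311 RPKM in mTEChi (-1.83, adjusted p = 1.6e-10) and from 43.9 ± 2.22 to 29.9 ± 0.723 RPKM in mTEClo (-0.55, adjusted p = 0.0013). Ifih1, the gene of MDA5, went from 16.8 ± 0.79 to 6.802 ± 0.359 RPKM in mTEChi (-1.29, adjusted p = 1.2e-10) and also fell in cTEC (-0.27, adjusted p = 0.0071). Dhx58, the gene of the regulator LGP2, had the smallest of the 3 changes in mTEChi, from 17.3 ± 1.19 to 12.1 ± 0.366 RPKM (-0.51, adjusted p = 0.00014), and lost its call when centred on housekeeping genes. All 3 were lowest in KO mTEChi.

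The transcription factors of the pathway fell in all 3 populations. Irf7 (chr7:141263183-141266424), which amplifies type I interferon production, was at 47.4, 47.5 and 37.6 RPKM in the WT and 12.97, 14.4 and 14.2 RPKM in the KO mTEChi libraries (log2 fold change -1.66, SE 0.10, adjusted p = 8.7e-10). In mTEClo it was at 236, 245 and 264 RPKM in the WT and 141, 149 and 134 RPKM in the KO mTEClo libraries (log2 fold change -0.81, SE 0.10, adjusted p = 0.00012), and in cTEC it fell less (-0.35, adjusted p = 0.019). Every KO library lay below every WT library in each population. Irf9 and Stat2, whose proteins are part of the ISRE-binding complex, went from 20.5 ± 1.27 to 11.3 ± 0.552 RPKM (-0.86, adjusted p = 1.6e-08) and from 17.4 ± 1.01 to 8.52 ± 0.337 RPKM (-1.02, adjusted p = 3.6e-09) in mTEChi. Their changes in mTEClo were -0.35 and -0.40, and those in cTEC -0.36 and -0.26. Parp9 and Dtx3l, whose proteins work as a pair of ADP-ribose and ubiquitin writers, and Parp14 lie together on chromosome 16. In mTEChi, Parp14 fell most (-1.68, adjusted p = 2.5e-12), from 14.5 ± 0.413 to 4.46 ± 0.186 RPKM, ahead of Dtx3l (-0.86) and Parp9 (-0.72).

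Of the 5 other genes that act on nucleic acid, all fell in KO mTEChi. Ddx60 (chr8:61928089-62037695), a helicase that assists RIG-I, was at 4.39, 4.15 and 3.87 RPKM in the WT and 0.347, 0.367 and 0.482 RPKM in the KO mTEChi libraries (log2 fold change -3.09, SE 0.10, adjusted p = 1.4e-12). It fell less in mTEClo, from 20.3 ± 0.893 to 12.03 ± 0.4 RPKM (-0.75, adjusted p = 0.00032). Cmpk2 (chr12:26469215-26479837), a mitochondrial nucleotide kinase, was at 9.38, 8.402 and 7.45 RPKM in the WT and 1.59, 1.69 and 1.97 RPKM in the KO mTEChi libraries (log2 fold change -2.20, SE 0.11, adjusted p = 9.6e-11). Neither gene had overlapping genotypes in mTEChi. Rsad2, which encodes viperin and adjoins Cmpk2 on chromosome 12, went from 10.7 ± 2.46 to 2.79 ± 0.722 RPKM in mTEChi (-1.90, adjusted p = 1.4e-07), while in mTEClo its genotypes overlapped at 13.02 ± 1.14 and 12.5 ± 1.28 RPKM (-0.07, adjusted p = 0.86). Eif2ak2, the gene of the kinase PKR, fell in mTEChi (-1.46, adjusted p = 8.9e-11), mTEClo (-0.42) and cTEC (-0.40). Zbp1, a sensor of Z-form nucleic acid, fell by about as much in mTEChi (-0.59) as in mTEClo (-0.69), and its cTEC call (-0.32, adjusted p = 0.045) was lost with the replicate block, without the expression filter, and without some single libraries.

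The other effectors include 2 of the 3 largest falls in mTEClo and the smaller rise in mTEChi. Rtp4 (chr16:23609919-23614222), a receptor-transporting protein induced by interferon, was at 12.96, 11.03 and 7.83 RPKM in the WT and 1.59, 1.99 and 1.61 RPKM in the KO mTEChi libraries (log2 fold change -2.53, SE 0.14, adjusted p = 4.8e-10). Ifi44 (chr3:151730923-151749959) was at 11.1, 9.31 and 9.19 RPKM in the WT and 1.52, 1.79 and 1.67 RPKM in the KO mTEChi libraries (log2 fold change -2.50, SE 0.13, adjusted p = 1.2e-10). Xaf1 (chr11:72301629-72313733), whose protein binds an inhibitor of apoptosis, was at 6.62, 6.22 and 5.63 RPKM in the WT and 1.0004, 1.37 and 1.301 RPKM in the KO mTEChi libraries (log2 fold change -2.25, SE 0.12, adjusted p = 1.5e-10). In all 3 genes the genotypes were far apart. Ifi44 was at 76.95, 74.4 and 81.3 RPKM in the WT and 34.3, 40.997 and 39.6 RPKM in the KO mTEClo libraries (log2 fold change -1.02, SE 0.13, adjusted p = 0.00013). Bst2 (chr8:71534262-71537437), the gene of tetherin, was at 208, 229 and 238 RPKM in the WT and 113, 124 and 119 RPKM in the KO mTEClo libraries (log2 fold change -0.92, SE 0.11, adjusted p = 0.00012). Together with Gbp3 these had the largest falls in mTEClo, again without overlap. In cTEC, Rtp4 was at 82.4, 89.6 and 85.5 RPKM in the WT and 49.5, 66.5 and 60.2 RPKM in the KO cTEC libraries (log2 fold change -0.56, SE 0.14, adjusted p = 0.012), with an adjusted p of 0.064 without KO cTEC replicate 1. Samd9l, Trim30a and Lgals3bp fell in mTEChi (-1.12, -0.48 and -1.33), and the call of Trim30a was lost under quantile normalization and housekeeping centring.

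Ifi35 (chr11:101448412-101458701), whose protein pairs with NMI, was higher in KO mTEChi, as Ifit1 was. It was at 58.7, 61.2 and 54.3 RPKM in the WT and 87.2, 94.04 and 81.6 RPKM in the KO mTEChi libraries (log2 fold change 0.59, SE 0.08, adjusted p = 5.9e-06). The KO libraries all lay above the WT libraries there. In mTEClo it fell from 88.9 ± 5.41 to 72.1 ± 5.96 RPKM (-0.30, adjusted p = 0.014), and in cTEC the genotypes overlapped (-0.02, adjusted p = 0.93). Nmi, its partner gene, was lower in KO mTEChi (-0.60, adjusted p = 1.1e-05), so the genes of the pair did not move together there.

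**Figure D4:**
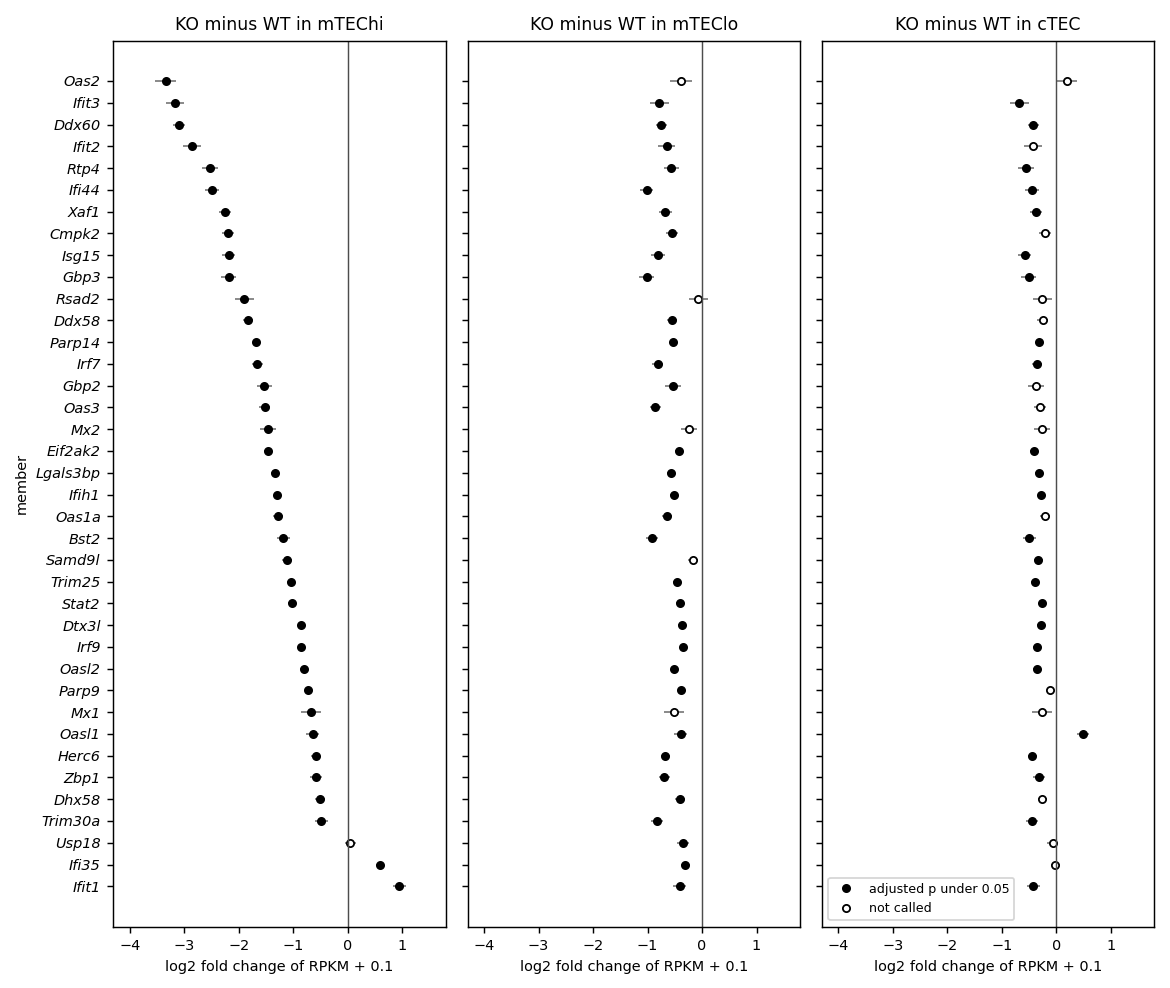
KO minus WT log2 fold change of RPKM + 0.1 for each of the 38 members in the 3 populations, with bars of 1 SE; filled dots have an adjusted p under 0.05. Members are ordered by their change in mTEChi, where 35 are called lower; 33 are called lower in mTEClo and 23 in cTEC.

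**Figure D5:**
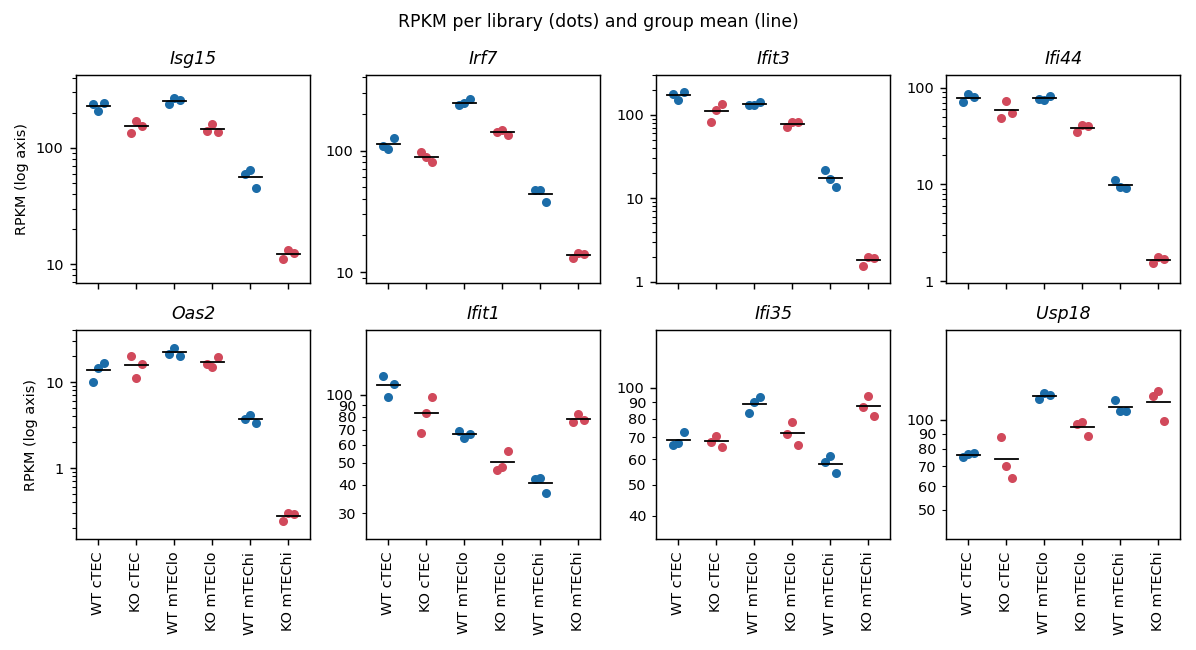
RPKM on a log axis for 8 members in each library (dots, WT blue and KO red), with the group mean as a line. Isg15, Irf7, Ifit3, Ifi44 and Oas2 are lowest in KO mTEChi, whereas Ifit1 and Ifi35 are higher in KO than in WT mTEChi and Usp18 overlaps there.

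The 3 populations also differed from each other in WT mice. Compared with WT mTEClo, 35 members were lower in WT mTEChi (31.1% of all tested genes) and 1 was higher (41.6%), with a median of -1.49 beside 0.12 over all genes. The largest differences were those of Rtp4, from 89.1, 88.6 and 93.1 RPKM in mTEClo to 12.96, 11.03 and 7.83 RPKM in mTEChi (-3.11, adjusted p = 3.1e-11), of Ifit3 (-2.97, adjusted p = 3.6e-10) and of Ifi44 (-2.97, adjusted p = 1.4e-11). For these 3 genes every mTEClo library lay above every mTEChi library. Oasl1 was the gene that was higher, at 17.9, 17.3 and 18.2 RPKM in mTEClo and 32.2, 31.9 and 24.5 RPKM in mTEChi (0.72, adjusted p = 3.9e-05). Usp18 and Rsad2 were not called. Against WT cTEC, 34 members were lower in WT mTEChi (31.8%) and 2 were higher (46.6%), namely Oasl1 (2.48, adjusted p = 2.4e-11) and Usp18 (0.53, adjusted p = 0.00018), the latter not when centred on housekeeping genes. Ifit3 differed most, at 178, 152 and 189 RPKM in WT cTEC (-3.33, adjusted p = 6.6e-11). These comparisons use the same WT mTEChi libraries as the genotype comparison in mTEChi.

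WT mTEClo and WT cTEC lay closer together. In mTEClo 22 members were higher (24.6% of all tested genes) and 3 lower (18.2%). Oasl1 (1.76, adjusted p = 1.3e-08), Oas3 (1.40, adjusted p = 5.9e-08) and Irf7 (1.14, adjusted p = 2.2e-07) had the largest rises. Oas3 was at 6.64, 6.86 and 8.08 RPKM in WT cTEC and 18.8, 17.5 and 21.1 RPKM in WT mTEClo, and Irf7 at 109, 104 and 126 and 236, 245 and 264 RPKM. The groups did not overlap for these genes. The 3 lower members were Ifit1 (-0.71, adjusted p = 0.00013), Gbp2 (-0.40, adjusted p = 0.035) and Samd9l (-0.30, adjusted p = 0.012); without WT cTEC replicate 2, Ifit1 alone passed, and Gbp2 also lost its call without 3 other libraries. By group mean, WT mTEClo was the highest group for 27 members and WT cTEC for 10.

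Without Aire, mTEChi again lay below the other populations. Compared with KO mTEClo, 34 members were lower in KO mTEChi (43.7% of all genes) and 4 higher (23.4%). The lower members were led by Oas2 (-5.49, adjusted p = 2.2e-12), Ifit3 (-5.36, adjusted p = 6.7e-13) and Rtp4 (-5.07, adjusted p = 2.2e-13). Among the higher members were Ifit1 (0.64, adjusted p = 0.00013), Oasl1 (0.46, adjusted p = 0.0021) and Ifi35 (0.28, adjusted p = 0.0039), and the fourth was Usp18. Against KO cTEC, 34 members were lower (41.2%) and 3 higher (26.6%), the higher ones being Oasl1, Usp18 and Ifi35. Within KO mTEChi the levels spread from 0.278 ± 0.033 RPKM for Oas2 and 0.398 ± 0.073 RPKM for Ddx60 to 78.5 ± 3.58 RPKM for Ifit1, 87.6 ± 6.22 RPKM for Ifi35 and 115 ± 13.7 RPKM for Usp18. In WT mTEChi the lowest member was Mx2, at 3.12 ± 0.394 RPKM, and the highest was Usp18, at 110.4 ± 5.28 RPKM.

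Whether the genotype effect differed between populations was tested directly. The effect in mTEChi was lower than that in mTEClo for 28 members (40.9% of all tested genes) and higher for 3 (6.01%), Ifit1 (1.36, adjusted p = 6.7e-06), Ifi35 (0.90, adjusted p = 6.4e-06) and Usp18 (0.40, adjusted p = 0.032), which lost its call under quantile normalization and without any of 7 single libraries. The differences were largest for Oas2 (-2.95, adjusted p = 5.5e-07), Ifit3 (-2.39, adjusted p = 1.1e-06) and Ddx60 (-2.35, adjusted p = 5.8e-09). This count rests on the scaling. When each library was centred on housekeeping genes, 15 members had a lower and 8 a higher effect in mTEChi. The median over all genes moved from -0.39 to 0.21, so the 40.9% and 6.01% do not apply to these counts. No share of all genes is given for them here, so they do not set the members apart from all genes. Against the effect in cTEC, 30 members were lower (44.8%) and 2 higher (5.13%). Among the members whose effect did not differ past the test between mTEChi and mTEClo were Herc6 (0.08, adjusted p = 0.59), Zbp1 (0.10, adjusted p = 0.6) and Bst2 (-0.26, adjusted p = 0.2).

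Across the 18 libraries the members' log2 levels moved largely together. The median Pearson r over the 703 pairs of members was 0.93, 526 pairs had r above 0.8, and 101 had r below 0. The libraries share 6 groups, so these values describe the group pattern and are no measure of independent co-variation. Oasl1, Usp18, Ifi35 and Ifit1 stood apart, with median r to the other members of -0.48, -0.39, -0.10 and 0.16. The size of the KO minus WT change was only loosely shared between populations. Over the 38 members, the changes in mTEChi and mTEClo had r = 0.37, those in mTEChi and cTEC r = 0.27, and those in mTEClo and cTEC r = 0.49, beside 0.27, 0.16 and 0.50 over all 19451 genes. The signs were the same for 35, 33 and 36 of the 38 members, beside 60.2%, 57.8% and 67.3% of all genes.

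By position, 16 of the members fell into 7 groups of neighbours within 100 kb of each other. These were Gbp2 with Gbp3 on chromosome 3, Oasl1 with Oasl2 and Oas2 with Oas3 on chromosome 5, Rsad2 with Cmpk2 on chromosome 12, Parp14, Dtx3l and Parp9 as well as Mx1 with Mx2 on chromosome 16, and the Ifit genes on chromosome 19. Neighbours had the same direction in KO mTEChi in every group but that of the Ifit genes. With 35 of the 38 members lower there, this follows largely from the total and cannot show an effect of position. For 10 members, Parp9 and Ifi35 among them, GENCODE has a gene on the opposite strand within the same span. Whether the counting used strand is not given in the sources used here, so reads of such partners cannot be told apart.

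Other genes of the pathway were counted in lists chosen with earlier results of these data known. In KO mTEChi, 26 of 37 further interferon-stimulated genes were lower and 3 higher, beside 52.8% and 9.57% of all genes. Parp12 went from 12.8 ± 0.739 to 3.04 ± 0.379 RPKM (-2.04, adjusted p = 7.5e-12), Apol9b from 3.56 ± 0.364 to 0.21 ± 0.0637 RPKM (-3.57, adjusted p = 7.9e-12) and Slfn5 from 4.24 ± 0.67 to 0.908 ± 0.0994 RPKM (-2.10, adjusted p = 1.3e-10). All 3 were also lower in KO mTEClo (-0.49, -0.46 and -0.35). In mTEClo 22 of the 37 were lower and 0 higher, and in cTEC 10 were lower and 3 higher, beside 8.04% and 7.93%, and 6.76% and 13.3%, of all genes. Housekeeping centring gave 20 lower and 6 higher in mTEChi, 32 and 0 in mTEClo, and 21 and 3 in cTEC. Quantile normalization gave 23 lower and 6 higher in mTEChi. Housekeeping centring also moved other genes down in the other 2 populations. Of the 13 housekeeping genes, 5 were then lower in KO mTEClo and 2 in KO cTEC, beside 0 and 0 without it. The 8.04% and 6.76% therefore do not apply to the counts after centring. Of 21 targets of interferon gamma, 13 were lower and 4 higher in KO mTEChi, a share of lower genes near that of all genes, 9 lower and 1 higher in mTEClo, and 7 lower and 1 higher in cTEC.

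Of the 19 interferon genes in the tables, 8 passed the filter on low values and 11 did not. Ifna1 and Ifna4 passed through WT mTEChi alone, so they had to be lower in KO mTEChi, and no count of calls is given there. Ifnb1, which encodes interferon beta, was at 2.45, 3.36 and 1.79 RPKM in the WT and 0.225, 0.306 and 0.289 RPKM in the KO mTEChi libraries (log2 fold change -2.78, SE 0.37, adjusted p = 6.8e-06). All other libraries of the data set had less than 1 RPKM of it. Ifna1 was at 0.164, 0.206 and 0.138 RPKM in WT mTEChi and was listed at 0 in all other libraries. Ifnl2 and Ifnl3, of the lambda interferons, were at 4.76 ± 0.764 and 3.36 ± 0.597 RPKM in WT and 1.65 ± 0.324 and 1.36 ± 0.12 RPKM in KO mTEChi, and did not pass the test (adjusted p = 0.073 and adjusted p = 0.072). The summed level of the interferon genes was 12.9 to 14.95 RPKM in WT mTEChi, 5.16 to 7.22 RPKM in KO mTEChi and at most 2.72 RPKM in any other library. It was thus highest in WT mTEChi, where the 38 genes were lower than in WT mTEClo. In mTEClo 0 of the 8 were called in limma, and 0 had an unadjusted p under 0.05. The 19 genes summed to at most 1.08 RPKM in WT and 1.02 RPKM in KO mTEClo libraries, and Ifna1 was at 0 in all of these. At such levels the count cannot show whether interferon genes changed in mTEClo. In KO cTEC Ifnl2 (2.11, adjusted p = 0.04) and Ifnl3 (1.99, adjusted p = 0.022) were higher, from levels near 0 and with unequal replicates.

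The KO mTEChi counts of the next 3 lists stand against 52.8% lower and 9.57% higher among all tested genes. Of the 6 receptor genes, 5 were lower in KO mTEChi (3 lower and 1 higher under quantile normalization), led by Ifnlr1 (-1.47, adjusted p = 1.7e-06), Ifngr2 (-0.88, adjusted p = 2.5e-06) and Ifnar2 (-0.78, adjusted p = 9.8e-06). Ifnar1, the other chain of the type I receptor, was at 11.99 ± 0.118 and 11.6 ± 0.263 RPKM there (-0.05, adjusted p = 0.42; called higher under quantile normalization, 0.15, adjusted p = 0.035), while it fell in mTEClo (-0.41, adjusted p = 0.00023) and cTEC (-0.25, adjusted p = 0.0043). Of 12 signalling genes, 3 were lower and 3 higher in KO mTEChi, and 1 lower and 6 higher when centred on housekeeping genes. Irf8 rose from 112 ± 7.598 to 267 ± 7.38 RPKM in mTEChi (1.26, adjusted p = 7.2e-06). Of 12 genes of nucleic acid sensing, 8 were lower and 1 higher in KO mTEChi, the adaptor gene Mavs (-0.68, adjusted p = 5.1e-06) among the lower; this split turned to 1 lower and 3 higher under quantile normalization.

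Markers of the sorted populations were read beside these results. The summed level of 7 mTEChi markers was 1186 to 1210.3 RPKM in WT mTEChi, 1586 to 1714 RPKM in KO mTEChi, 58.9 to 73.9 RPKM in WT cTEC and 130 to 154 RPKM in WT mTEClo. Of the 7, 1 was called higher and 0 lower in KO mTEChi, so the higher sum there is no rise of the whole list. Aire itself is 1 of the 7, and its 1073 RPKM made up most of the KO mTEChi sum. In KO mTEChi all 4 mTEClo markers were lower, Krt5 at 342 RPKM in WT and 78.2 RPKM in KO, and their sum was 451 to 595 RPKM in WT and 143 to 169 RPKM in KO. mTEClo is the population with the highest interferon-stimulated genes, and the part of these markers in the result was not tested. In KO cTEC, 4 of 7 mTEChi markers were higher, with a sum of 89.9 to 224 RPKM beside 58.9 to 73.9 RPKM in WT. The Aire transcript was at 95.6, 35.9 and 26.997 RPKM in KO cTEC and 2.09, 3.95 and 7.39 RPKM in WT cTEC, so KO cTEC replicate 1 stood apart. Without that library 18 members were lower in cTEC (3.77%) and 1 was higher. The Aire row holds 1 value per gene and KO mTEChi had 1073 ± 64.5 RPKM of it, so it checks no genotype label.

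Markers of other cells were counted in the same way. In KO mTEChi, 8 of 12 markers of dendritic cells and macrophages were lower and 1 higher (3 and 2 under quantile normalization), beside the 52.8% and 9.57% of all genes, with a sum of 364 to 391 RPKM in WT and 377 to 406 RPKM in KO. Of 8 markers of plasmacytoid dendritic cells, cells known for making type I interferon, 5 were lower (2 lower and 1 higher under quantile normalization), with a sum of 403 to 466 RPKM in WT and 158 to 183 RPKM in KO. The same list summed to 265 to 339 RPKM in WT mTEClo and 309 to 327 RPKM in KO mTEClo. Siglech, the defining marker of that list, was at 0.245, 0.289 and 0.264 RPKM in WT and 0.00966, 0.00526 and 0.00584 RPKM in KO mTEChi. Siglech was thus near the floor in both, and the sums were carried by other genes of the list. Of 12 thymocyte markers 5 were lower, a smaller share than that of all genes (1 lower and 1 higher under quantile normalization), with a sum of 65.1 to 92.6 RPKM in WT and 30.8 to 50.7 RPKM in KO. Of the fibroblast, endothelial and B cell markers, 6 of 8, 5 of 8 and 3 of 7 were lower and 1, 0 and 0 higher. No marker of these lists was at 0 in all 3 libraries of either mTEChi group. In KO mTEClo, of the same lists in that order (dendritic cell and macrophage, plasmacytoid, thymocyte, fibroblast, endothelial, B cell), 1, 0, 0, 2, 0 and 0 were lower and 2, 1, 0, 2, 1 and 1 higher. In KO cTEC 1, 0, 1, 4, 0 and 0 were lower and 2, 2, 0, 1, 2 and 3 higher. Their part in the results was not tested. Of 10 genes of dissociation stress, 0 were called for KO minus WT in any population by limma. At an unadjusted p under 0.05 there were 0 in mTEChi, 4 in mTEClo and 0 in cTEC. Quantile normalization gave 2 lower in mTEChi and 3 higher in mTEClo, and housekeeping centring 1 higher in mTEChi. Between populations, all 10 were lower in WT mTEChi than in WT mTEClo (31.1% of all tested genes) and than in WT cTEC (31.8%). All 10 were also lower in KO mTEChi than in KO mTEClo (43.7%). Their sum was 1615 to 1888 RPKM in WT mTEChi, 4044 to 5236 RPKM in WT mTEClo and 4820 to 6984 RPKM in WT cTEC. The part of these genes in the differences between populations was not tested.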

How the data were processed

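Gene levels were measured by RNA sequencing of 18 libraries. The authors deposited 1 table per library, with an RPKM value and a signal that adds up aligned bases per gene; the latter is no read count, so no count test was used. The submitters' processing notes name CASAVA 1.8.2 and mm10. No source used here gives the annotation, the counter or the aligner's settings.

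The deposited RPKM entered the fit as they stand. Genes with 0.1 RPKM or more in 3 libraries were kept. log2(RPKM + 0.1) was fitted with limma 3.58.1 in R 4.3.3 (6 group means, all 18 libraries), with Benjamini-Hochberg adjustment over all tested genes, and the fit was tested on simulated data. The members and lists were chosen with earlier results of these data known. Values per library are given for the 8 largest falls and the rises in KO minus WT mTEChi, members not called there, and up to 3 members each way in other comparisons. Alternatives were other pseudocounts, filters and scalings, fits with fewer libraries, and a replicate block. Same-numbered libraries deviated together within a genotype (r above 0 in 18 of 18 pairs, above 0.1 in 7) but not between genotypes (7 and 0 of 27). All 3 pairs passed 0.1 for WT cTEC with WT mTEClo alone. The values of 1 gene of the signalling list are not reported here.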

Additional observations from a re-analysis of the deposited data

Results flagged for a closer look

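The difference between genotype effects in 2 populations was tested within the fit over all genes, and the results that passed were looked at again. The KO minus WT effect was lower in mTEChi than in mTEClo for 28 members and higher for 3, beside 40.9% and 6.01% of all tested genes. The 3 were Ifit1 with a difference of 1.36 on the log2 scale, Ifi35 with 0.90 and Usp18 with 0.40. Against cTEC the effect in mTEChi was lower for 30 members and higher for 2, Ifit1 with 1.37 and Ifi35 with 0.61. The shares of all tested genes were 44.8% and 5.13% there. The split against mTEClo was narrower when libraries were centred on housekeeping genes. The rise of Ifit1 in mTEChi kept its call under every alternative run, whereas its falls in cTEC and mTEClo each lost theirs without some single libraries. The Oasl1 difference was -1.14, since it rose in KO cTEC and fell in KO mTEChi. The rise was not called with the cTEC groups fitted alone. Oas2 had a difference of -3.53, with 19.99, 11.1 and 16.3 RPKM in KO cTEC and 0.24, 0.301 and 0.294 RPKM in KO mTEChi.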

How the results depend on the processing

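The shares of all tested genes that are called also change with the setting, and they are not given in this section. The counts below thus describe the members alone and make no comparison with all genes. With only the compared groups in the fit, KO minus WT in cTEC gave 2 lower and 0 higher members. Centring on the housekeeping list gave 1 member higher in WT mTEChi than in WT cTEC, and for the genotype effect in mTEChi against mTEClo 15 lower and 8 higher. Quantile normalization gave 5 members lower in WT mTEClo than in WT cTEC, and leaving out single libraries gave 1 to 3. Leaving out single libraries gave 35 lower members in mTEChi each time, 26 to 32 in mTEClo and 16 to 23 in cTEC. The replicate block gave 35 lower and 2 higher in mTEChi, 33 and 0 in mTEClo, and 22 and 1 in cTEC, and ended the call of Zbp1 in cTEC (adjusted p = 0.053). A replicate block within genotype, added after seeing the data, gave 33 in place of 34 lower members in WT mTEChi against WT cTEC and 23 in place of 22 higher in WT mTEClo against WT cTEC; it left the other counts between populations, and those of the difference between genotype effects, as they were, and cannot be fitted for KO minus WT. Signs turned for members that were not called: Usp18 in mTEChi was -0.016 under quantile normalization and -0.012 to 0.15 without single libraries, and without single libraries Rsad2 in mTEClo was -0.14 to 0.0059, Usp18 in cTEC -0.19 to 0.032, Oas2 in cTEC -0.024 to 0.42 and Ifi35 in cTEC -0.048 to 0.023. The causes were not tested. Depth is known as aligned bases, not as read counts, so no counting error can be given.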

Other observations

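The guanylate-binding protein genes outside the 38 members differed in direction in KO mTEChi, largely by chromosome. These genes were singled out after their values were seen. On chromosome 3, next to Gbp2 and Gbp3, Gbp5 went from 24.6 ± 1.01 to 8.91 ± 0.452 RPKM (-1.45, adjusted p = 1.7e-08), Gbp7 from 6.296 ± 0.15 to 2.04 ± 0.114 RPKM (-1.58, adjusted p = 6.7e-10) and Gbp1 from 3.31 ± 0.819 to 1.696 ± 0.244 RPKM (-0.90, adjusted p = 0.046). On chromosome 5, Gbp4 rose from 38.6 ± 0.873 to 68.8 ± 5.35 RPKM (0.83, adjusted p = 0.00033), Gbp9 from 39.7 ± 3.53 to 62.6 ± 3.72 RPKM (0.66, adjusted p = 8e-06), Gbp8 from 62.2 ± 1.51 to 88.4 ± 2.38 RPKM (0.51, adjusted p = 0.042) and Gbp6 from 17.1 ± 0.359 to 23.4 ± 1.45 RPKM (0.45, adjusted p = 0.0091). Gbp10, also on chromosome 5, was lower (-0.70, adjusted p = 0.0046). Under quantile normalization Gbp10 was at 0.45 (adjusted p = 0.075), Gbp1 at -0.13 (adjusted p = 0.77) and Gbp8 at 0.45 (adjusted p = 0.083), while the others kept their direction and call. Centred on housekeeping genes, Gbp1 was at -0.60 (adjusted p = 0.18) and Gbp10 at -0.39 (adjusted p = 0.14). The others kept their direction and call there too. The genes are close paralogs and may share reads, and the split itself was not tested.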
